A study of Mus musculus with 6 samples.

Results

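Among the liver non-parenchymal cells, which are the cells of the liver other than hepatocytes, 108 cells carried RNA of Dpt or Clec3b together with RNA of fibrillar matrix genes. They were chosen by a gate on unique molecular identifiers (UMIs, each standing for 1 captured RNA molecule). A cell needed at least 2 UMIs of Dpt and Clec3b together and at least 5 UMIs of Col1a1, Col3a1 and Dcn together, in a cell with fewer than 5000 genes and under 5% mitochondrial UMIs. These 108 Dpt/Clec3b-gated cells were 0.392% of the 27544 cells that passed the cell filter, out of 33168 deposited barcodes. The 6 libraries came from livers of male C57BL/6J mice aged 8 weeks at the start of a high-fat diet that lasted 24 weeks, a model of nonalcoholic steatohepatitis (NASH). In the last 8 weeks 3 of them received the vehicle DMSO and 3 received ginkgetin, a biflavone of Ginkgo biloba leaves, at 10 mg/kg per day by the intragastric route. All animals shared the diet, and no chow library was analysed here.

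Portal fibroblasts are matrix-producing cells that lie around the portal veins and bile ducts. Hepatic stellate cells, the other main source of collagen in the liver, lie in the perisinusoidal space and store vitamin A in the quiescent state. Both can become myofibroblasts in fibrosis. Dpt encodes dermatopontin, a matrix protein that binds decorin, and lies at chr1:164796644-164824266 on GRCm38 in the GENCODE vM21 annotation. Clec3b encodes tetranectin, a secreted plasminogen-binding protein, and lies at chr9:123150946-123157432. Dpt and Clec3b are used as markers of fibroblasts in many tissues. Lrat, which makes retinyl esters, and Reln, which encodes reelin, mark stellate cells.

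The gate held 9, 18 and 37 cells in vehicle libraries 1, 2 and 3, and 5, 11 and 28 cells in ginkgetin libraries 1, 2 and 3. Replicate 3 of each group was deeper, and the libraries held 13128697 to 61796882 UMIs in all. The median gated cell had 9186 UMIs, with a range of 887 to 24695. Of the 258 barcodes present in more than 1 library, none belonged to a gated cell. The replicate 3 libraries shared 10 barcodes with each other and 0 or 1 with each library of replicates 1 and 2, whose own pairs shared 23 to 85. What sets replicate 3 apart was not tested. Without the cell filter 151 cells met the gate, so 43 were lost to the filter. At the edge, 12 gated cells held exactly 2 UMIs of Dpt and Clec3b, and 17 cells with enough matrix UMIs held 1 such UMI and stayed outside. The matrix threshold decided little, since the lowest gated cell held 20 matrix UMIs.

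The label of a portal fibroblast did not cover the whole gate. Once the values were seen, the gated cells were divided into 3 kinds by genes that the gate had not used. There were 54 unmarked cells, 43 cells with at least 2 UMIs of Lrat and Reln (Lrat/Reln-marked) and 11 cells with at least 2 UMIs of Msln, Upk3b, Upk1b, Gpm6a and Lrrn4, which are genes of the mesothelium that covers the liver (mesothelial-marked). No cell carried both marks. Of the 12 cells at exactly 2 UMIs of the gate genes, 8 were Lrat/Reln-marked and 3 were mesothelial-marked. Since the kinds were chosen after their values were seen, the contrasts between them are descriptions with no test.

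**Figure D1:**
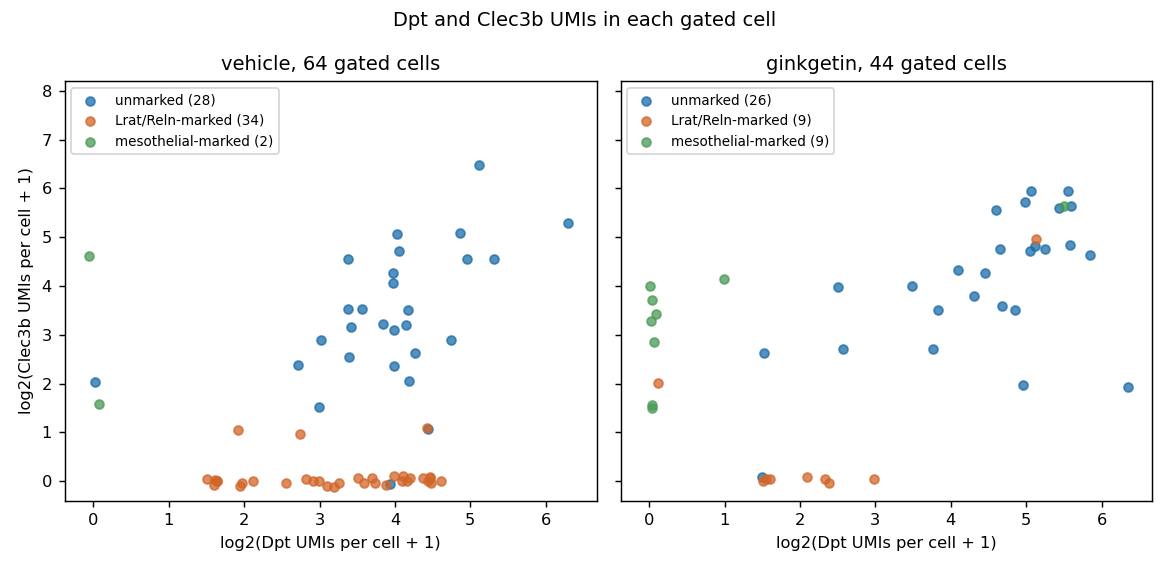
Each point is a gated cell, placed by log2(UMIs + 1) of Dpt on the horizontal axis and of Clec3b on the vertical axis, with vehicle on the left and ginkgetin on the right, and a small random shift to part points that coincide. Unmarked cells held both transcripts in 51 of 54 cells, Lrat/Reln-marked cells lay along the Dpt axis, and mesothelial-marked cells lay along the Clec3b axis.

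The unmarked cells carried the fibroblast genes together. Dpt and Clec3b were both detected in 51 of the 54 cells, with medians of 17.5 and 12 UMIs per cell. Gsn, which encodes the actin-severing protein gelsolin, was present in all 54 of them at 11 to 601 UMIs per cell. Its summed level was 20427 CPM (UMIs scaled to a total of 1000000 per sum of cells) against 398 CPM in stellate cells. The progenitor and adventitial marker Cd34 was detected in 52 cells, the complement component C3 in 52, the elastic fibre glycoprotein Fbln1 in 50 and the PDGF receptor Pdgfra in 49. Entpd2, an ectonucleotidase described on portal fibroblasts, was detected in 44 cells. Thy1, another marker often used for portal fibroblasts, was detected in 4 cells only. Rgs5, a pericyte gene that neither the gate nor the marks used, had no UMI in the 54, and a count of 0 of 54 allows up to 5.56% of cells with a UMI. Lrat, Reln, Upk3b and Msln also had no UMI there, but the division into kinds had already kept each mark under 2 UMIs. Colec11 was found in 4 of them. Acta2, the smooth muscle actin of myofibroblasts, was found in 3, and Cnn1 and Actg2 in none.

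The Lrat/Reln-marked cells entered the gate almost through Dpt alone. Dpt was detected in 42 of 43 and Clec3b in 5. They held the stellate genes Colec11 in 41 cells, Ecm1 in 42 and Hgf in 33, and the fibroblast genes Pi16 in 1, Mfap5 in 2 and Igfbp6 in 6. The median Lrat/Reln-marked cell had 9978 UMIs and the median unmarked cell 7500.5. The mesothelial-marked cells showed the reverse use of the gate, with Clec3b in 11 of 11 and Dpt in 2. They held Upk3b in 10 cells, the mesothelial transcription factor Wt1 in 9 and the keratin Krt19 in 9. Igfbp5 was at 5471 CPM in them and at 172 CPM in the unmarked cells. C3 and Igfbp6 were detected in 11 of the 11 mesothelial-marked cells.

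**Figure D2:**
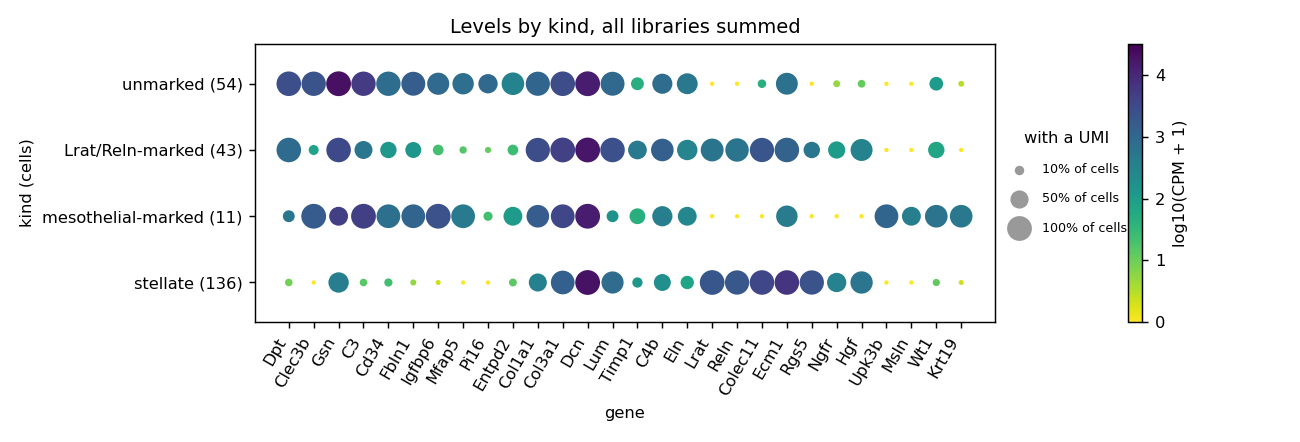
Genes are on the horizontal axis and the 3 kinds of gated cell and the stellate cells on the vertical axis. The area of a dot stands for the percent of cells with a UMI and its colour for log10(CPM + 1), all libraries summed. Gsn reached 20427 CPM in unmarked cells, Lrat and Reln were at 0 there, and Upk3b was seen only in the mesothelial-marked kind.

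Within the unmarked cells, Pi16 and Col15a1 divided the cells. Pi16, a peptidase inhibitor of adventitial fibroblasts, was detected without Col15a1 in 20 cells. Col15a1, a basement membrane collagen, was detected without Pi16 in 17 cells. Both were found in 11 cells and neither in 6. The pair were picked after the values were seen, and the classes differed in depth, with medians of 9142.5 UMIs for Pi16 alone, 4995 for Col15a1 alone and 10702 for both, so that detection and depth cannot be told apart. In the Pi16 cells without Col15a1, Ly6c1 was at 508 CPM, Dpp4 at 131 CPM and Fn1, which encodes fibronectin, at 2189 CPM. In the Col15a1 cells without Pi16, Ly6c1 and Dpp4 had no UMI and Fn1 was at 166 CPM. The chemokine Cxcl12 went the other way, at 230 CPM with Pi16 alone and 1503 CPM with Col15a1 alone. Igf1, which encodes insulin-like growth factor 1, was at 220 and 955 CPM in the same order. C3 was at 5615 and 4884 CPM.

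Next, the gated cells were compared with stellate cells from the same libraries, to see where they differ on genes that neither gate had used. The stellate cells were 136 cells with at least 2 UMIs of Lrat and Reln, at least 5 matrix UMIs and under 2 UMIs of Dpt and Clec3b. There were 5, 16 and 11 in the vehicle libraries and 10, 60 and 34 in the ginkgetin libraries. UMIs were summed per library and population, and the 2 populations were compared with edgeR's quasi-likelihood test with the library as a block. The 7 gate genes were left out of the calls. Of 1570 other genes that passed the filter on low counts, 82 were higher in gated cells (5.22%) and 135 were lower (8.6%) at an adjusted p under 0.05 and a fold over 2. Both populations were picked by their RNA, so these counts describe how far the gates lie apart and do not test whether they are separate types. Without ginkgetin library 3 the total of 217 calls became 131, and with both marked kinds left out, in the 4 libraries that then had enough cells, it became 394, of which 202 were shared with the 217. Those 394 were 163 higher (9.78%) and 231 lower (13.9%) of 1667 genes tested. The balance turned under 2 alternatives. With no matrix threshold for the stellate cells, 143 were higher and 108 lower of 2077 genes tested. In the 4 libraries with at least 10 cells of both populations, 133 were higher and 109 lower of 3117. The 6 libraries of the 2 populations did not overlap for 119 genes (7.58%). Of 64 called genes that are list members or lead the differences, 18 lost the call when 1 library was left out, 17 of them without ginkgetin 3 and 12 without ginkgetin 1, all with the sign kept. A gene could pass the filter through the population where it was high, so the counts of list members that passed are descriptions.

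Fibroblast genes were higher in gated cells. Of 21 list members outside the gates 13 passed the filter, 12 of these were higher and none lower, against 5.22% higher and 8.6% lower over all genes tested. The median log2 difference was 3.59 against 0.03 over all genes tested. The 8 that did not pass were Thy1, Entpd2, Pi16, Dpp4, Ly6c1, Col15a1, Slit2 and Gli1. Gsn was at 7882, 8326 and 7433 CPM in the vehicle libraries and 9301, 3543 and 20207 CPM in the ginkgetin libraries. In stellate cells it was at 34.5, 338 and 193 CPM and 437, 542 and 429 CPM. Thus the lowest gated library lay above the highest stellate one, and the log2 difference was 4.88 ± 0.50 (SE, edgeR adjusted p = 0.000206). Cd34 differed by 4.18 ± 0.70 (edgeR adjusted p = 0.0027) and the tumour endothelial marker Cd248, also found on fibroblasts, by 3.07 ± 0.35 (edgeR adjusted p = 0.000325). The growth arrest gene Gas1 differed by 2.92 ± 0.34. Pdgfra, the list member that passed the filter and was not called, was at 90.6 to 804 CPM in gated and 86.4 to 456 CPM in stellate cells.

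Elastic fibre genes give vessels and ducts their recoil. Of 18 members 14 passed the filter, 7 of these were higher, 1 was lower and 6 were not called, against 5.22% higher and 8.6% lower over all genes tested. Mfap5, a microfibril protein, was at 698, 552, 250, 393, 199 and 556 CPM in the gated cells of vehicle 1 to 3 and ginkgetin 1 to 3. No UMI of it was found in the 136 stellate cells, so the gated cells were at least 116-fold higher, with 3 counts over the stellate group as the floor. Fbln1 was at 698, 406 and 365 CPM with vehicle and 906, 626 and 1732 CPM with ginkgetin, and at 0 to 9.98 CPM in stellate cells. The log2 difference was 7.61 ± 0.45 for Fbln1 and 6.04 ± 0.65 for Fbln2 (edgeR adjusted p = 3.68e-06 and 0.00026). Elastin itself, Eln, was at 91.6 to 720 CPM in gated and 17.3 to 113 CPM in stellate cells, which overlap across libraries (2.31 ± 0.39, edgeR adjusted p = 0.00298). Loxl1, which cross-links elastin, was at 235 to 459 CPM against 29 to 79.9 CPM. Emilin1 was the member that was lower (−1.68 ± 0.39, edgeR adjusted p = 0.0128), and its gated levels ran from 36.7 CPM in vehicle 1 to 766 CPM in vehicle 3. Its call was lost without ginkgetin 3 and without ginkgetin 1 (edgeR adjusted p = 0.054 and 0.0528). Fbn1, which encodes fibrillin, was called (1.43 ± 0.41, edgeR adjusted p = 0.035) but lost the call without each of 4 libraries, at 0.0921 without ginkgetin 1, 0.161 without ginkgetin 3, 0.107 without vehicle 2 and 0.108 without vehicle 3.

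**Figure D3:**
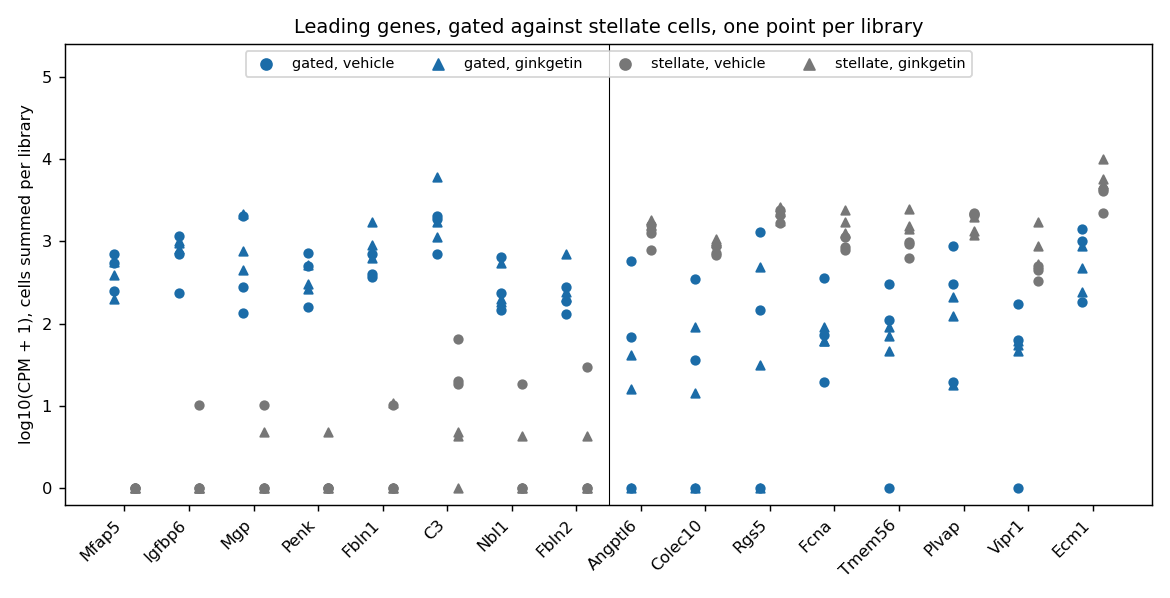
Each point is a library, with log10(CPM + 1) on the vertical axis, gated cells in blue, stellate cells in grey, vehicle as circles and ginkgetin as triangles. The 8 genes left of the line had the largest differences upward and the 8 right of it the largest downward among genes whose libraries did not overlap, and Mfap5 was at 0 in every stellate library.

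Other leading genes had few stellate UMIs, so their ratios are loose upward. Igfbp6, an IGF binding protein, had 644 UMIs in gated and 1 in stellate cells, a ratio of 548 with a 95% counting interval of 97.9 to 21663. Mgp, an inhibitor of calcification, had 586 and 2 UMIs, a ratio of 249 (68.7 to 2062). Penk, which encodes proenkephalin, had 351 and 1 UMIs, a ratio of 298 (53.2 to 11822). Nbl1, which encodes a secreted BMP antagonist, had 313 and 2 UMIs, a ratio of 133 (36.5 to 1104). These intervals are exact and cover counting error only. Mgp varied much between libraries, at 2039 CPM in vehicle 1 and 2138 CPM in ginkgetin 2 against 135 CPM in vehicle 3. The mesothelial-marked share of the gate was 22.2% and 27.3% in the first pair and 0 in vehicle 3 and vehicle 2, where Mgp was at 276 CPM. Ginkgetin 1 and ginkgetin 3, with shares of 20% and 17.9%, had Mgp at 453 and 754 CPM. With the mesothelial-marked cells left out Mgp differed by 8.34 from stellate cells on the log2 scale (edgeR adjusted p = 8.75e-05), against 8.46 with them.

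Matrix enzymes and their inhibitors remodel the matrix. Of 18 members 12 passed the filter, 6 of these were higher, 1 was lower and 5 were not called, against 5.22% higher and 8.6% lower over all genes tested. The median log2 difference of the 12 was 1.17. Serpinf1, which encodes pigment epithelium-derived factor, differed by 5.01 ± 0.81, the serine protease Htra3 by 3.15 ± 0.32 and Htra1 by 2.59 ± 0.35. Timp2, an inhibitor of metalloproteinases, was at 1856, 990, 1140, 1510, 1268 and 1742 CPM in gated cells and 396 to 777 CPM in stellate cells, without overlap (1.57 ± 0.18, edgeR adjusted p = 0.000323). Mmp2 and Mmp23 differed by 1.47 ± 0.37 and 1.80 ± 0.40. Without ginkgetin 3 both lost the call (edgeR adjusted p = 0.107 and 0.0627), and Mmp2 also without ginkgetin 1 (0.0525) and ginkgetin 2 (0.0502). The protease Adamts1 was the member that was lower (−1.27 ± 0.22). Timp1 did not pass the filter and was at 698 CPM in vehicle 2, 308 CPM in vehicle 3 and 15.3 to 55.1 CPM in the other gated libraries.

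Collagens were called in both directions. Of 9 collagen genes outside the gates that passed the filter, Col6a2 was higher (1.36 ± 0.23, edgeR adjusted p = 0.00305), Col14a1 was lower (−1.30 ± 0.28, edgeR adjusted p = 0.00906) and 7 were not called, against 5.22% higher and 8.6% lower over all genes tested. With both marked kinds left out 1 of the 9 was higher and 3 were lower, against 9.78% higher and 13.9% lower over all genes tested in that fit. Among proteoglycans and matricellular genes, the small leucine-rich protein Ogn was at 321 to 777 CPM against 19.3 to 86.5 CPM (3.48 ± 0.28), and Tnxb was higher by 1.30 ± 0.21. Prelp, of the same leucine-rich family, was lower (−1.26 ± 0.26), and Postn, which encodes periostin, was lower (−2.40 ± 0.74, edgeR adjusted p = 0.0486). Postn lost the call without vehicle 1 or any ginkgetin library (edgeR adjusted p = 0.106 to 0.135).

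C3, the central component of complement, was at 1856, 706 and 2030 CPM in gated cells of the vehicle libraries and 1117, 1741 and 6002 CPM in those of the ginkgetin libraries. It was at 0 to 64 CPM in stellate cells, and the log2 difference was 7.13 ± 0.77 (edgeR adjusted p = 0.00026). Of 7 complement genes that passed the filter 2 were higher, against 5.22% over all genes tested. The other was C4b (1.81 ± 0.34, edgeR adjusted p = 0.00527), with 1802 CPM in vehicle 3 and 235 to 710 CPM elsewhere. In the IGF list, Igf1 was at 202 to 559 CPM against 0 to 119 CPM (4.09 ± 0.65) and Igfbp4 at 1331 to 3390 CPM against 121 to 631 CPM (2.26 ± 0.37). Igfbp3 was lower (−2.03 ± 0.56, edgeR adjusted p = 0.0305), a call lost without ginkgetin 3 (0.0956) or vehicle 3 (0.0744). Among transcription factors, Ebf1 (3.58 ± 0.73) and Klf4 (2.81 ± 0.65) were higher and Nr2f2 was lower (−1.40 ± 0.30). Klf4 lost the call without ginkgetin 1 (edgeR adjusted p = 0.0525). Of the 14 immediate early genes, all of which passed the filter, Atf3 and Nr4a1 were called higher, against 5.22% of all genes tested. Atf3 lost the call without each library except ginkgetin 2 (edgeR adjusted p = 0.0741 to 0.14), and Nr4a1 without ginkgetin 3 (0.0767). With both marked kinds left out 9 of the 14 were called higher, against 9.78% of all genes tested in that fit. The summed level of the 14 genes in gated cells was 17637 CPM in vehicle 1 and 4078 to 11538 CPM in the other libraries.

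The stellate genes were lower in gated cells. All 15 list members passed the filter, 12 were lower and none was higher, against 8.6% lower and 5.22% higher over all genes tested. The median log2 difference was −2.72 against 0.03 over all genes tested. Rgs5, a regulator of G-protein signalling found in pericytes, was at 1693 to 2599 CPM in stellate cells. In gated cells it was at 0, 1315 and 144 CPM with vehicle and 483, 0 and 30.1 CPM with ginkgetin (−3.92 ± 0.81, edgeR adjusted p = 0.00794). The collectins Colec10 and Colec11 differed by −4.14 ± 0.72 and −2.90 ± 0.51, the matrix protein gene Ecm1 by −2.94 ± 0.35 and the neurotrophin receptor Ngfr by −2.72 ± 0.34. Beyond the list the differences were led by Fcna, which encodes ficolin A (−3.78 ± 0.52), Tmem56 (−3.76 ± 0.50) and Plvap (−3.45 ± 0.63), beside Angptl6 (−4.37 ± 0.65) and Vipr1 (−3.40 ± 0.48) of the list. Hgf, hepatocyte growth factor, differed by −2.52 ± 0.66. It lost the call without vehicle 1 or any ginkgetin library (edgeR adjusted p = 0.0513 to 0.0766). Vehicle 2, with 8 Lrat/Reln-marked cells of 18, had the highest gated Rgs5 and Colec11, the latter at 2061 CPM. Vehicle 3, with 25 of 37, had Colec11 at 1512 CPM, and ginkgetin 3, with 4 of 28, had it at 87.1 CPM. Rgs5 had no UMI in the unmarked or mesothelial-marked cells of any library. In the Lrat/Reln-marked cells it was at 2355 CPM in vehicle 2, 203 CPM in vehicle 3 and 0 to 1592 CPM in the other libraries. Its level in the marked cells thus differed between libraries, and the order in gated Rgs5 was not that of the marked share. With both marked kinds left out 14 of the 15 were called lower, against 13.9% of all genes tested in that fit.

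The lists of signalling genes held few members that passed the filter. Lower were 2 of 5 in the IL6 and STAT3 list, 1 of 5 cytokines and 2 of 2 in the Wnt, BMP and TGF-beta list, with none higher. Among 8 receptors 2 were lower and 1 was higher, against 8.6% lower and 5.22% higher over all genes tested. Lower genes included the gp130 receptor subunit Il6st (−1.22 ± 0.29) and its partner Lifr (−1.20 ± 0.27), the chemokine Cxcl12 (−1.17 ± 0.36, edgeR adjusted p = 0.048), Bmp5 (−2.11 ± 0.37) and the Wnt amplifier Rspo3 (−1.45 ± 0.42). Cxcl12 overlapped widely, at 710 to 2781 CPM against 2086 to 5076 CPM. Tgfbr2 was higher (1.29 ± 0.32). The lipoprotein lipase gene Lpl was higher (1.73 ± 0.35) and the lipid droplet coat gene Plin2 lower (−1.22 ± 0.32). Of 5 contractile genes that passed the filter, Tpm2 was lower (−1.66 ± 0.42) and 4 were not called, against 8.6% lower over all genes tested. With both marked kinds left out all 5 were called lower, at a median of −2.76, against 13.9% of all genes tested in that fit. Without ginkgetin 3 the calls of Il6st (edgeR adjusted p = 0.0532), Cxcl12 (0.107), Rspo3 (0.106), Tgfbr2 (0.122), Plin2 (0.0856) and Tpm2 (0.0737) were lost, and Lifr fell short of the fold at −0.96. Without ginkgetin 1 those of Cxcl12 (0.163), Rspo3 (0.135), Plin2 (0.075) and Tpm2 (0.0549) were lost. Cxcl12 and Rspo3 also lost the call without ginkgetin 2 (0.102 and 0.102) and vehicle 1 (0.123 and 0.0726), and Tpm2 without vehicle 1 (0.0546) and vehicle 3 (0.0595).

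The share of gated cells was then compared between vehicle and ginkgetin. It was 0.150%, 0.540% and 0.894% of the kept cells in the vehicle libraries and 0.143%, 0.159% and 0.769% in the ginkgetin libraries. The means were 0.528% ± 0.373 and 0.357% ± 0.357 (SD, n = 3 each), and the groups overlapped (two-sided exact permutation test, p = 0.6). With 3 against 3 libraries this test cannot go below 0.10. In each of the 3 same-numbered pairs the share was lower with ginkgetin (paired exact permutation test, p = 0.25, the smallest that 3 pairs allow). The difference of −0.171 percentage points became 0.0123 without vehicle library 3, 0.0506 without the Lrat/Reln-marked cells and −0.0510 after thinning each cell to 2000 UMIs. It became 0.0869 without cells holding 5 or more UMIs of other lineages, which were 65 of the 108 gated cells and 32 of the 37 in vehicle 3. The unmarked cells alone were 0.230% ± 0.113 and 0.222% ± 0.260 of kept cells (exact permutation test, p = 0.9, adjusted 0.9 over 7 tests of the composition). Fewer cells of this kind and less recovery of them from the liver cannot be told apart.

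Against the stellate cells the gated cells made up 64.3%, 52.9% and 77.1% of both populations with vehicle and 33.3%, 15.5% and 45.2% with ginkgetin. The groups did not overlap, and the difference was −33.4 percentage points (exact permutation test, p = 0.1, the smallest this design allows). It was −26.7 points with both marked kinds left out and −35.9 points with the mesothelial-marked cells left out (exact permutation test, p = 0.1 each). It was −23.9 points with the Lrat/Reln-marked cells left out and −29.8 points after thinning each cell to 2000 UMIs, where the groups overlapped in both cases (exact permutation test, p = 0.2). In the main count, cells with at least 2 UMIs of Lrat and Reln that met the gate counted as gated. They were 16.7%, 33.3% and 69.4% of all such matrix cells with vehicle and 9.09%, 6.25% and 10.5% with ginkgetin. The stellate cells were 0.0831%, 0.480% and 0.266% of kept cells with vehicle and 0.286%, 0.867% and 0.933% with ginkgetin. The part of either in the difference was not tested.

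The kinds were spread unevenly over the libraries. The Lrat/Reln-marked cells numbered 1, 8 and 25 in the vehicle libraries and 1, 4 and 4 in the ginkgetin libraries. The unmarked cells numbered 6, 10 and 12 against 3, 4 and 19, and the mesothelial-marked cells 2, 0 and 0 against 1, 3 and 5. The Lrat/Reln-marked share of the gate was 41.0% ± 28.4 against 23.5% ± 11.5 (SD, n = 3 each, exact permutation test, p = 0.5, adjusted 0.7). Counted from the other side, all cells with matrix UMIs and at least 2 UMIs of Lrat and Reln held Dpt in 3 of 6, 10 of 24 and 27 of 36 cells with vehicle. With ginkgetin Dpt was found in 1 of 11, 5 of 64 and 3 of 38 cells. This was 50%, 41.7% and 75% against 9.09%, 7.81% and 7.89%, without overlap. Dpt was a gene of the gate and this count was made after the kinds were seen, so the shares are given as a description. Their exact permutation tests, 2 of the 7 of the composition, gave p = 0.1 (adjusted 0.233) before and after thinning and support nothing here. The median depth of these cells was 9892.5, 6603.5 and 12106.5 UMIs with vehicle and 4407, 4369 and 9458.5 UMIs with ginkgetin. After thinning to 2000 UMIs the shares were 33.3%, 25.0% and 64.7% against 0%, 5.17% and 5.41%. The count of 0 of 11 cells in ginkgetin 1 allows a share of up to 27.3%. In T cells, which should lack the gene, Dpt was found in 1 of 1406, 1 of 701 and 4 of 952 cells of the vehicle libraries and in 0 of 1303, 2 of 1363 and 2 of 824 cells of the ginkgetin libraries, at median depths of 2704 to 6089 UMIs. Of these 10 cells 6 met the gate. T cells were taken here as cells with a UMI of Cd3e, Cd3d or Trac, whether or not they held matrix UMIs.

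**Figure D4:**
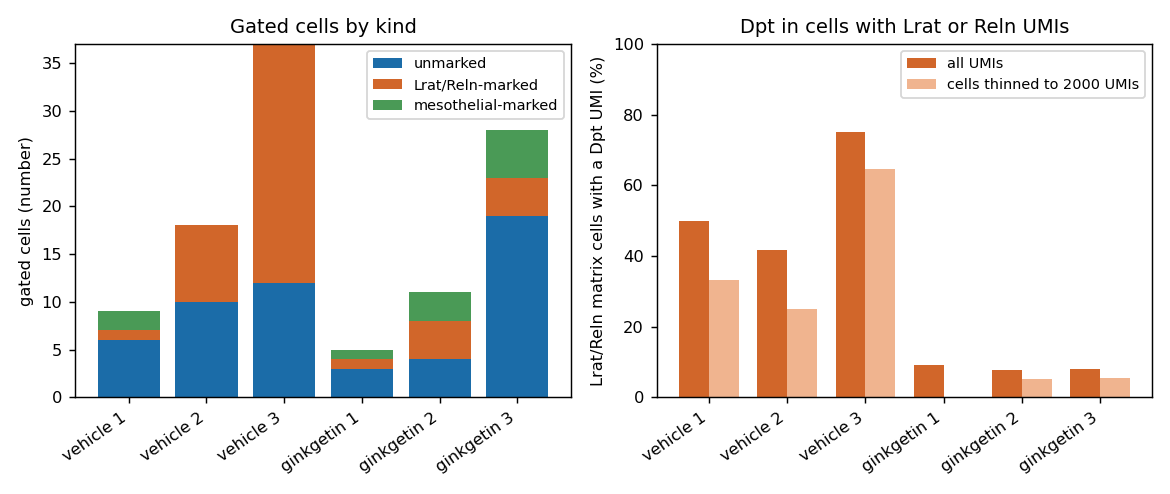
The left plot stacks the number of gated cells by kind for each library. The right plot gives the percent of Lrat/Reln matrix cells with a Dpt UMI, before and after thinning to 2000 UMIs, where the 3 vehicle libraries lie at 41.7% to 75% before thinning and the 3 ginkgetin libraries at 7.81% to 9.09%.

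Summed over cells, the Lrat/Reln-marked cells of vehicle 2 and vehicle 3 held more fibrillar collagen RNA than the stellate cells of the same library. In vehicle 3, Col1a1 was at 3677 CPM in the 25 marked cells and 241 CPM in the 11 stellate cells, and Col1a2 at 3296 and 628 CPM. In vehicle 2, with 8 and 16 cells, Col1a1 was at 2021 and 539 CPM. The 8 marked cells were uneven, with 60 and 50 Col1a1 UMIs in 2 of them and 0 to 14 in the others. In ginkgetin 2 and ginkgetin 3, with 4 marked cells each, Col1a1 was at 622 and 754 CPM against 161 and 253 CPM in stellate cells. So the order was the same in the 4 libraries with at least 4 marked cells. The single marked cell of vehicle 1 had no Col1a1 UMI, against 1572 CPM in the 5 stellate cells of that library. Col3a1 was at 4888 against 1381 CPM in vehicle 3 and 533 against 849 CPM in ginkgetin 2, so the order was not the same throughout. C4b was at 2016 CPM in the marked cells of vehicle 3 and at 247 to 267 CPM in those of the other 3. Rgs5 was at 203 CPM in the marked cells of vehicle 3 and at 2355 CPM in those of vehicle 2, so the marked cells were not alike in the 2 vehicle libraries. Col1a1 and Col3a1 were gate genes of both populations, and all these values are descriptions with no test.

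Finally, the effect of ginkgetin on the gated cells was examined. Of 1480 genes that passed the filter, edgeR called 0 (0.0%) at an adjusted p under 0.05 and a fold over 2. There were 60 with an unadjusted p under 0.05, and the lowest edgeR adjusted p was 0.621. The values of the groups did not overlap for 136 genes (9.19%). DESeq2 called 7 genes on the same counts, which were Vit, Aebp1, Osr1 and Rps29 upward and Nfkbia, Cebpb and Lyz2 downward. Without a filter on low counts 48 genes were called.

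The genes with the smallest unadjusted p in each direction are given as values. Aebp1, which encodes a collagen-binding protein of the matrix, was at 367, 503 and 405 CPM with vehicle and 1238, 993 and 1038 CPM with ginkgetin, a log2 difference of 1.41 ± 0.32 (edgeR adjusted p = 0.754). Vit, which encodes the matrix protein vitrin, was at 73.5, 48.7 and 55.4 CPM against 211, 168 and 368 CPM (2.29 ± 0.45, edgeR adjusted p = 0.754). Zyx, which encodes the focal adhesion protein zyxin, was at 91.9, 97.4 and 97.4 CPM against 272, 199 and 285 CPM (1.48 ± 0.32, edgeR adjusted p = 0.754). Lower with ginkgetin were Nfkbia, the NF-κB inhibitor that NF-κB itself induces, at 514, 333 and 259 CPM against 90.6, 61.1 and 60.3 CPM (−2.32 ± 0.39, edgeR adjusted p = 0.621). The transcription factor gene Cebpb was at 1396, 698 and 613 CPM against 121, 305 and 241 CPM (−1.88 ± 0.50, edgeR adjusted p = 0.772). Ifi203, an interferon-inducible gene, was at 276, 252 and 197 CPM against 30.2, 91.6 and 87.1 CPM (−1.49 ± 0.39, edgeR adjusted p = 0.772). These 6 did not overlap between groups, and none passed the edgeR threshold.

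**Figure D5:**
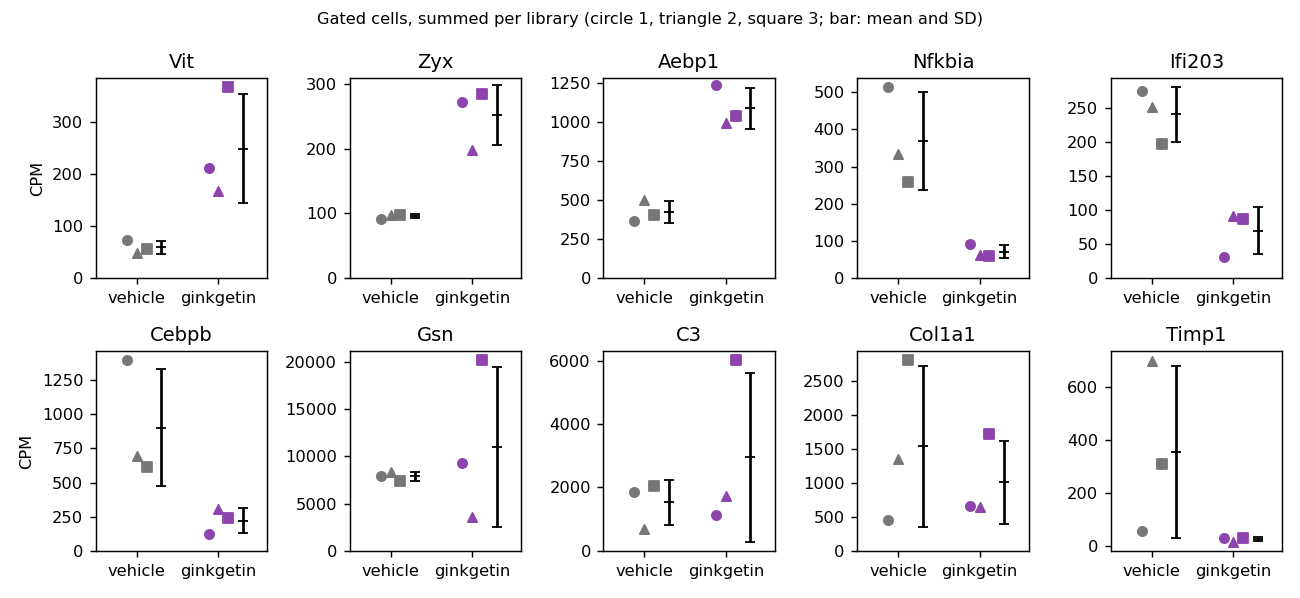
Summed levels in gated cells (CPM, vertical axis) for each library, with the mean and SD of each group of 3 beside the points. The 3 ginkgetin libraries lie above vehicle for Vit, Zyx and Aebp1 and below it for Nfkbia, Ifi203 and Cebpb, while Gsn, C3 and Col1a1 overlap.

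Macrophage RNA in the gate differed between the libraries. The 8 macrophage markers, Lyz2 among them, summed to 276, 349 and 1366 CPM in the gated cells of the vehicle libraries and 90.6, 214 and 56.9 CPM in those of the ginkgetin libraries, with all 8 markers detected. Without Lyz2 the other 7 summed to 110, 179 and 671 CPM with vehicle and 30.2, 153 and 53.6 CPM with ginkgetin, and the groups overlapped. Singly, 4 of the 8 markers overlapped between the groups and 4 did not, where 9.19% of all genes tested did not. Only 1 of the 8 passed the filter on low counts in the ginkgetin comparison, so the others rest on few UMIs. In vehicle 3, 2 cells held 331 and 141 macrophage UMIs. Lyz2, a lysozyme gene of myeloid cells and 1 of the 7 genes of DESeq2, was at 165, 170 and 695 CPM with vehicle and 60.4, 61.1 and 3.35 CPM with ginkgetin. The part of macrophage RNA in the values of Nfkbia and Cebpb was not tested. In the unmarked cells with at least 3 cells per library, 565 genes passed the filter and edgeR called 0 (24 at an unadjusted p under 0.05).

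Over the whole gate the levels of Gsn, C3 and Col1a1 overlapped between the groups. Gsn averaged 7880 ± 447 CPM with vehicle and 11017 ± 8463 CPM with ginkgetin, and C3 1531 ± 719 against 2953 ± 2658 CPM (SD, n = 3 each). Col1a1 averaged 1539 ± 1187 against 1007 ± 613 CPM over all gated cells. In the unmarked cells alone it went the other way, at 595, 496 and 693 CPM with vehicle and 696, 993 and 1681 CPM with ginkgetin. The groups did not overlap there, but only by 693 against 696 CPM, the latter from 3 cells. Col1a1 was also a gene of the gate. Timp1, which did not pass the filter, averaged 354 ± 324 against 25.2 ± 8.60 CPM and its lowest vehicle library, at 55.1 CPM, lay above the highest ginkgetin one, at 30.2 CPM. With 3 counts as the floor, which is 55.1 CPM in vehicle 1 and 90.6 CPM in ginkgetin 1, the values on both sides of this gap lay at or below the floor. Timp1 was at 1221 and 406 CPM in the Lrat/Reln-marked cells of vehicle 2 and vehicle 3. In the unmarked cells it was at 36.7 to 68.6 CPM with vehicle and 0 to 37.1 CPM with ginkgetin, which overlapped. In stellate cells it was at 795, 64.0 and 483 CPM against 0, 3.84 and 9.98 CPM. Among the lists, 13 of 17 fibroblast members were estimated higher and 4 lower with ginkgetin at a median of 0.45. Lower were 6 of 7 stellate members at a median of −0.56 and 12 of 14 immediate early genes at a median of −0.38. Over all 1480 genes tested 776 were estimated higher and 704 lower, at a median of 0.02. The edgeR unadjusted p was under 0.05 for 1 of the 17, 0 of the 7 and 1 of the 14, against 60 of the 1480. The 4 mesothelial members that passed the filter were estimated higher at a median of 1.46, 1 of them at an unadjusted p under 0.05. The 4 contractile ones were lower at a median of −0.84, with 0 at an unadjusted p under 0.05. The 9 mesothelial markers summed to 2039, 32.5 and 64.2 CPM with vehicle and 936, 1313 and 821 CPM with ginkgetin, which overlapped, and their part in the other values was not tested. No member of any list was called, and the kinds that make up the gate also differed between the libraries. In the unmarked cells alone Gsn was at 13580, 17686 and 17616 CPM with vehicle and 17737, 9398 and 24773 CPM with ginkgetin. Pi16 was at 66.1, 1322 and 1539 CPM against 1507, 132 and 727 CPM. Both overlapped between the groups. Mfap5 was at 1024, 1249 and 861 CPM in the unmarked cells with vehicle and 696, 66.2 and 639 CPM with ginkgetin, without overlap. In ginkgetin 1 and ginkgetin 2 it was found in 1 cell each. The share of all genes that did not overlap in the unmarked cells was not computed. The unmarked cells of ginkgetin 1 and 2 numbered 3 and 4, the genes were picked after their values were seen, and the values are descriptions with no test.

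A difference of the ginkgetin effect between gated and stellate cells was tested as an interaction in edgeR. Of 2348 genes 0 were called (0.0%), 144 had an unadjusted p under 0.05 and the lowest edgeR adjusted p was 0.264. DESeq2 called 4, among them Aebp1, Csrp2 and Hgf. Without vehicle library 1, which had 5 stellate cells, edgeR called 12.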

How the data were processed

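Per the labels and methods, non-parenchymal liver cells of 3 vehicle and 3 ginkgetin libraries were profiled with 10x Genomics droplets. The authors deposited raw UMI counts for 19349 genes and the deposited barcodes. The submitters' processing notes name the builds GRCm38 and mm10, and the aligner and annotation are not given in the sources used here. The published cell filter speaks of 250 to 5000 UMIs, and it was read here as genes per cell, with under 5% mitochondrial UMIs (the UMI reading was an alternative). No doublets were removed. Each library was 1 replicate. The methods give 3 per group and do not say whether animals were pooled in a library, so p-values measure the spread between libraries. UMI counts were summed per library for at least 5 cells of a population and tested with the quasi-likelihood test of edgeR 4.0.16 after TMM scaling and filterByExpr, with Benjamini-Hochberg adjustment, under R 4.3.3. DESeq2 1.42.0 was an alternative. Shares used exact permutation tests in scipy 1.17.1. Differences are gated minus stellate, or ginkgetin minus vehicle, on the log2 scale. Named genes were list members, up to 8 called genes each way at 100 CPM or more whose libraries did not overlap, and for ginkgetin the 3 smallest p-values each way. Genes named by DESeq2, and Pi16, Col15a1 and their classes, were chosen after the values were seen. The gate, the 268 list genes and the tests were chosen with earlier results of these data known. Fits were tested on simulated data. Depth per library was 13128697 to 61796882 UMIs, and intervals cover counting error only. Same-numbered libraries of the 2 groups deviated together (correlations of 0.154, 0.120 and 0.453 over 2720 genes), so a fit with the replicate number as a block was an alternative, although vehicle 2 correlated better with ginkgetin 1 (0.301).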

Additional observations from a re-analysis of the deposited data

How the results depend on the processing

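The share of gated cells differed by −0.171 percentage points (ginkgetin minus vehicle), and this became −0.0510 after thinning, turned to 0.0869 without cells of other lineages and 0.0506 without Lrat/Reln-marked cells, and ran from −0.377 to 0.0123 over the libraries left out in turn. The share among gated and stellate cells kept its sign under every alternative (−25.5 to −40.4 points over libraries left out, −54.1 without cells of other lineages, −43.9 under the UMI reading). None of these alternatives moved all Lrat/Reln-marked gated cells to the stellate side. The 217 calls against stellate cells became 910 with no filter on low counts, 21 under the UMI reading, 327 without Lrat/Reln-marked cells, 394 without both marked kinds, 164 without the mesothelial-marked cells (15 named genes lost the call there) and 86 in replicates 1 and 2 alone, and 131 to 220 without 1 library. The calls became 251 with no matrix threshold for the stellate cells (19 named genes lost the call there) and 242 with at least 10 cells per library (13 lost it). No named gene reversed its sign, and 25 of 64 named calls held under every alternative in which they were tested. The ginkgetin comparison gave 0 calls, 7 with DESeq2, 48 with no filter on low counts and 0 without any 1 library. The interaction gave 0, then 4 with DESeq2, 36 with no filter, 5 with at least 10 cells per library and 0 to 12 without 1 library. The cause of these changes was not tested. With the replicate block the ginkgetin comparison gave 0 calls, the paired difference in shares was −0.171 points (exact permutation test, p = 0.25) and −33.4 points (p = 0.25, the smallest that 3 pairs allow), and the block changed no call. A block for replicate 3 against replicates 1 and 2 also gave 0 calls for ginkgetin. Cebpd, picked after the values were seen, was at 0 CPM in the gated cells of replicates 1 and 2. It was at 1098 CPM in vehicle 3 and 918 CPM in ginkgetin 3. The alternatives with the marked kinds left out were chosen after seeing the data. Leaving out cells of other lineages, and for ginkgetin the UMI reading, left too few libraries and could not be fitted. The libraries held 5 to 37 gated cells, and the part of cell number in the counts of calls was not tested.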
